A study of Mus musculus with 36 samples.

Results

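The CCN family is a small group of secreted matricellular proteins, which sit in the extracellular matrix and act on cells rather than holding tissue together. Its members here are Ccn1 (older name Cyr61), Ccn2 (Ctgf), Ccn3 (Nov), Ccn4 (Wisp1) and Ccn5 (Wisp2), taken by gene name from a table of 55291 genes. All 5 passed the filter on low counts and were among the 13823 genes tested. The remaining gene of the family, Ccn6, had 0 counts in all 9 libraries, which allows up to 3 counts per library, and was not tested.

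The libraries came from whole mouse knee joint tissue collected at 24 h, in 3 groups of 3 biological replicates. The first group had an injury of the anterior cruciate ligament (ACL) and a protein kinase C (PKC) inhibitor. The second had the same injury and saline as vehicle. The third was a sham group with no ACL injury. The strain, age, sex, number of knees per library, inhibitor and dose were not stated in the labels, and neither was any vehicle given to sham mice. The series addresses PKC and the Hippo pathway in osteoarthritis after joint trauma, and the rest of its 36 libraries were not analysed here.

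CCN proteins are built from modules that resemble an IGF-binding domain, a von Willebrand factor type C domain, a thrombospondin repeat and a C-terminal cysteine knot, and they bind integrins and heparan sulfate proteoglycans. Ccn1 and Ccn2 are textbook targets of the coactivators YAP and TAZ, which act through TEAD factors and are held back by the Hippo kinases. Ccn2 also promotes matrix production and is needed for normal cartilage growth in mice. Ccn3 opposes actions of Ccn2 in cultured cells, Ccn4 is induced by Wnt signalling and is expressed in bone, and Ccn5 lacks the C-terminal knot.

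The family resemblance is visible in the coding sequence of the IGF-binding-like module. A stretch of 24 bases, 5′ to 3′, is shown for each member with the cysteine codons in capitals, because all 5 share the spacing of these 4 codons. The letters come from GENCODE M21 transcripts on mm10.
Ccn1: ggcTGCggcTGCTGTaaggtcTGC
Ccn2: ggcTGCggcTGCTGCcgcgtcTGC
Ccn3: ggcTGCtccTGCTGTccggtgTGC
Ccn4: ggcTGTgaaTGCTGTaagataTGT
Ccn5: ggcTGTggcTGCTGTcgagtgTGT
The first codon shown is number 49 in Ccn1, 52 in Ccn2, 54 in Ccn3, 72 in Ccn4 and 49 in Ccn5. Between pairs of members, 14 to 20 of the 24 bases were identical, most in Ccn1 with Ccn2 and fewest in Ccn2 with Ccn4.
The open reading frames encode 379 residues in Ccn1, 348 in Ccn2, 354 in Ccn3 and 367 in Ccn4, but 251 in Ccn5. Past the length of Ccn5, the longer members carry 10 to 13 further cysteines, the stretch that holds their C-terminal knot. The longest identical run between transcripts of a pair of members was 29 bases, between Ccn2 and Ccn3, over 10 pairs. This is shorter than the 100 bp reads, which bears on the counts because reads with several alignments were counted at each place.

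The genes lie apart on mm10. Ccn1 spans chr3:145646976-145649981 on the minus strand in 5 exons, with 2019 exon bases. Ccn2 spans chr10:24595442-24598683 on the plus strand, with 2861 exon bases, and Gm15270 overlaps it on the opposite strand, which the strand-specific counting separates. Ccn3 spans chr15:54745702-54754039 with 2869 exon bases and Ccn4 chr15:66891320-66923201 with 5565, both on the plus strand. Ccn5 spans chr2:163820861-163833146 on the plus strand with 1924 exon bases. None overlaps a gene on its own strand.

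Of the members, a promoter was at hand for Ccn1. Its 250 bases before the start, from RefSeq on GRCm38.p6 (chr3:145649986-145650235, minus strand), are shown because this gene is the usual readout of YAP/TAZ and TEAD. Capitals mark a TEAD motif, written GGAATG on the other strand, and a TATA box.
Ccn1 promoter: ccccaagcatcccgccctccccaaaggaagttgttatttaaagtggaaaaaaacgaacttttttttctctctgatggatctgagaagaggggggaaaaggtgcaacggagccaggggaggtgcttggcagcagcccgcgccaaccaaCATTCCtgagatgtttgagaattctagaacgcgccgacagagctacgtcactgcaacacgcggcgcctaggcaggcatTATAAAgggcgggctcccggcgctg
The TEAD motif lies at positions -103 to -98 from the start and occurs, on either strand, in 12.6% of 32536 promoter windows of this length. The TATAAA match lies at -25 to -20, and 7.55% of windows hold one on the gene's strand. GGGCGG, the GC box, matched at -239 to -234 on the opposite strand and at -19 to -14 on the gene's strand, and occurs in 33% of windows. TGANTCA, the AP-1 motif, had no match in this window and occurs in 6.73%. The SRF motif (CArG box) had none either and occurs in 1.48%. None of the motifs overlap in this window. A match is a run of letters and was not tested as a binding site.

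Total counts were 124 to 202 M per library, of which 93.1% to 98.6% fell on 11 genes of 7SL and U3 RNA. Counts outside those genes were 2.54 M (vehicle library 1) to 8.92 M (inhibitor library 2), and the CCN values rest on this remainder. TMM scaling (trimmed mean of M values) gave the libraries factors of 0.63 to 3.64. A normalised count here is what a gene would have in a library of the mean effective size, 182 M counts. Markers of cartilage, bone, fibroblasts, endothelium and myeloid cells were counted in these libraries, as the knee joint label implies. The exceptions at 0 were the cartilage matrilin Matn1 in inhibitor libraries 1 and 3 and sham library 2, with 10 counts over all libraries, and the pericyte channel Kcnj8 in sham library 2. Inhibitor library 1 stood apart in muscle, endothelial, pericyte and adipocyte markers, and inhibitor library 2 in depth. In bulk tissue, fewer cells of a type and less RNA per cell cannot be told apart.

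Per kilobase of exon, Ccn2 was the most abundant member in every group. It averaged 58.7 normalised counts per kb with the inhibitor, 82.8 with vehicle and 45.5 in sham knees, and in each group its lowest library was above the highest library of the next member. With the inhibitor the order of mean levels went on with Ccn1 (34.7), Ccn5 (33.1), Ccn4 (21.8) and Ccn3 (8.16). There the ranges of Ccn1 and Ccn5 overlapped, as did those of Ccn5 and Ccn4, while Ccn3 lay below all others. With vehicle the order was Ccn1 (54.4), Ccn4 (24.0), Ccn5 (21.6) and Ccn3 (4.04), with overlap only between Ccn4 and Ccn5. In sham knees it was Ccn1 (28.4), Ccn4 (22.3), Ccn3 (22.2) and Ccn5 (14.5), where every neighbouring pair overlapped. Ccn3 had the lowest mean in both injured groups and the fourth of 5 in sham knees, level with Ccn4 there.

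**Figure D1:**
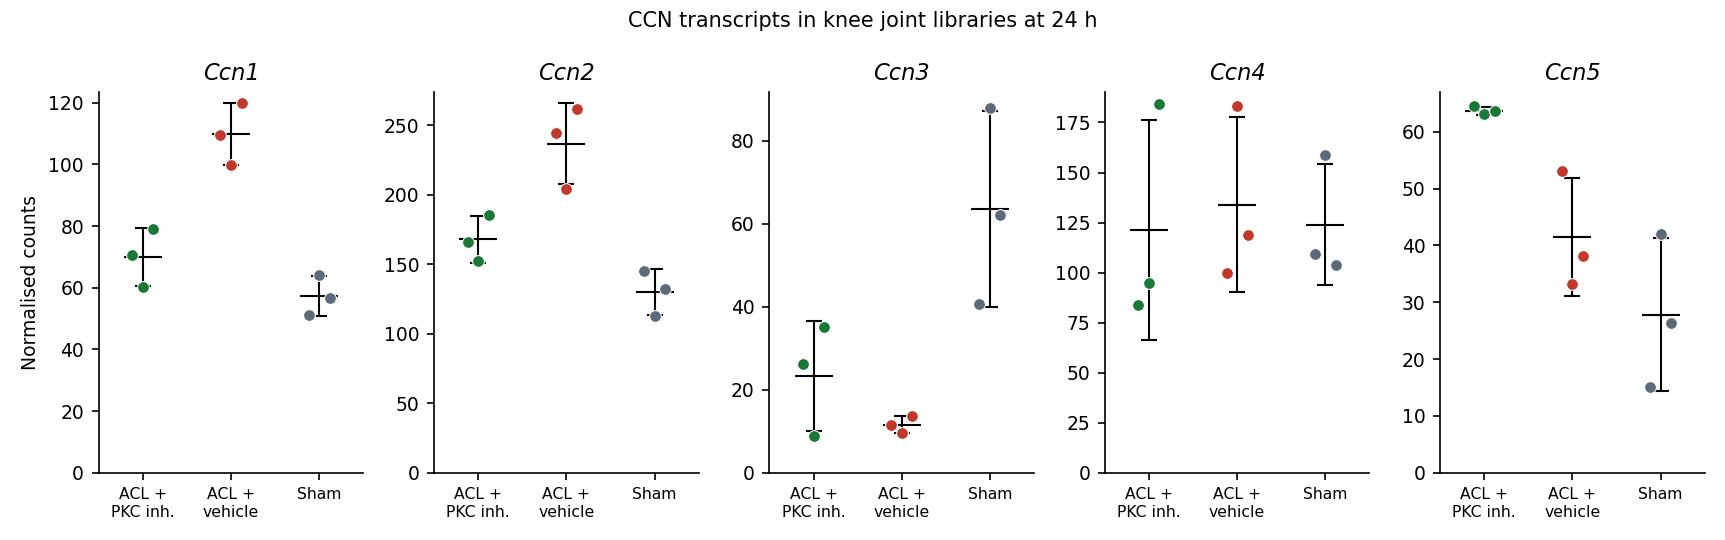
Normalised counts of the 5 CCN genes (y axes, one scale per gene, from 0) in the 3 groups (x axis). Points are libraries, horizontal bars the group mean and error bars the SD (n = 3 each). Ccn1 and Ccn2 are highest with vehicle and Ccn3 is highest in sham knees, while Ccn5 is highest with the inhibitor and the Ccn4 groups overlap.

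The family's summed level per kilobase was 136 to 182 normalised counts per kb with the inhibitor, 174 to 197 with vehicle and 118 to 152 in sham knees. The make-up of that sum differed for some members. Ccn2, the largest part, held 35.6% to 39.1% with the inhibitor, 41.0% to 46.5% with vehicle and 25.9% to 43.1% in sham knees, where the sham range overlapped both others. Ccn1 held 21.5% to 23.2% with the inhibitor, 28.4% to 30.2% with vehicle and 20.9% to 21.9% in sham knees. Ccn3 held 2.29% to 6.69% with the inhibitor and 1.90% to 2.41% with vehicle, against 12.04% to 20.1% in sham knees. Ccn5 held 18.1% to 24.1% with the inhibitor, against 9.92% to 14.6% with vehicle and 6.67% to 14.3% in sham knees. The Ccn4 shares overlapped across all groups.

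**Figure D2:**
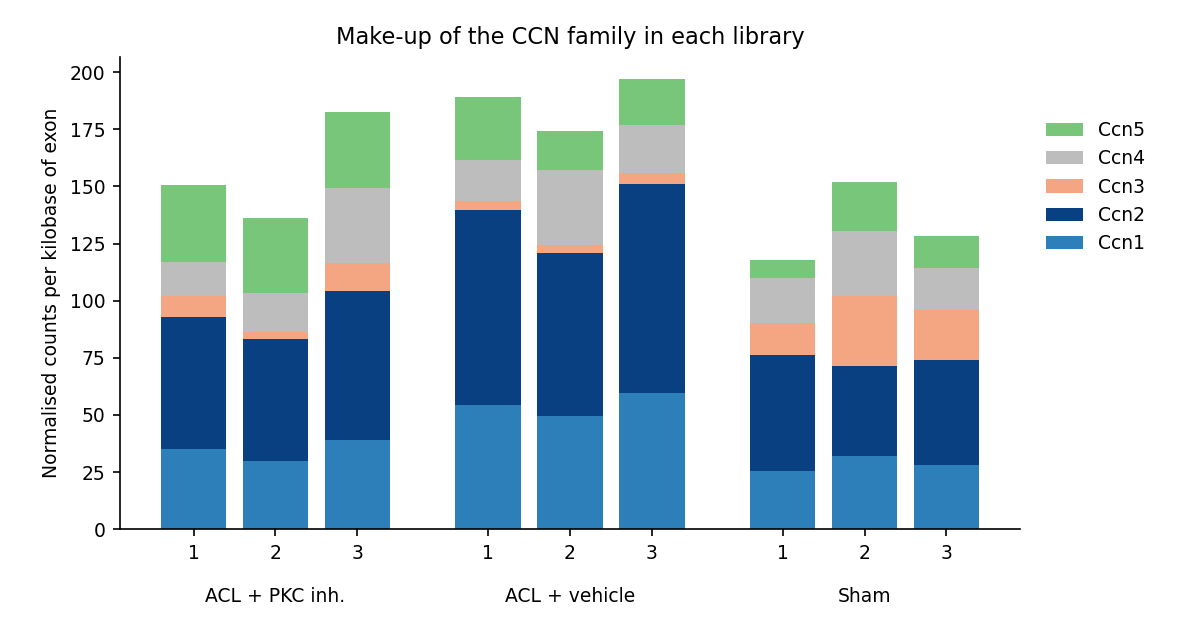
Stacked normalised counts per kilobase of exon (y axis, from 0) of the 5 CCN genes in each library, numbered within its group (x axis). The Ccn1 and Ccn2 blocks are tallest with vehicle, the Ccn3 block is tallest in sham knees, and the Ccn5 block is tallest with the inhibitor.

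At 24 h after injury with vehicle treatment, Ccn1 and Ccn2 stood at 1.91 and 1.82 times their sham level and Ccn3 was 5.45-fold lower, while Ccn4 and Ccn5 overlapped between groups. None passed the threshold of edgeR's quasi-likelihood test, an adjusted p of 0.05 over all genes tested, which called 0.304% of genes (0.282% higher and 0.0217% lower). At an unadjusted p under 0.05 there were 3 of 5 members, against 8.28% of all genes. DESeq2 called 2 members, Ccn2 and Ccn3, and 0.955% of all genes. Positive log2 fold changes were seen in 4 of 5 members, against 48.1% of all genes, and the median of the 5 was 0.57, beside -0.02 over all genes tested.

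Ccn1, an immediate-early matricellular protein with roles in wound healing, had 109.7, 99.8 and 120.0 normalised counts with vehicle, against 51.2, 64.2 and 56.6 in sham knees. Every vehicle library was above every sham library, which held for 8.2% of all genes. The log2 fold change was 0.94 ± 0.25 (SE), or 1.91-fold with a 95% interval of 1.32 to 2.77, and the adjusted p of edgeR was 0.179. Ccn2, the connective tissue growth factor, had 244, 204 and 262 normalised counts with vehicle, against 145, 113 and 132 in sham knees. These groups did not overlap either. Its log2 fold change was 0.86 ± 0.20 (SE), or 1.82-fold (1.35 to 2.46), with an adjusted p of 0.127 in edgeR and 0.0332 in DESeq2.

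Ccn3 had 11.6, 9.51 and 13.6 normalised counts with vehicle, against 40.7, 87.8 and 62.2 in sham knees. All vehicle libraries were below all sham libraries, as for 8.76% of all genes, and sham library 2 stood highest of the 9 libraries. The values rest on few reads, with raw counts of 7, 8 and 10 with vehicle against 35, 67 and 33 in sham knees. The log2 fold change was -2.45 ± 0.52 (SE), 5.45-fold lower, with a 95% interval of the fold of 0.0848 to 0.397. The adjusted p was 0.0694 in edgeR and 0.00677 in DESeq2. Among the members, Ccn3 came closest to the threshold of edgeR here.

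Ccn4 had 99.7, 183 and 119 normalised counts with vehicle, against 109, 159 and 104 in sham knees. The groups overlapped fully, with a 1.08-fold difference whose 95% interval of 0.67 to 1.75 leaves room for a change of either sign (adjusted p = 0.969, edgeR). Ccn5 had 53.2, 33.3 and 38.2 normalised counts with vehicle, against 15.1, 42.0 and 26.4 in sham knees. Sham library 2 lay above 2 of the vehicle libraries, and the fold of 1.49 (0.840 to 2.63) had an adjusted p of 0.751 in edgeR.

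Of 11 cell type marker lists, 5 had lower sums in every vehicle library than in every sham library. Among single genes 8.76% were lower in this way, and the sums of the other lists overlapped. Summed normalised counts of skeletal muscle markers were 7057 to 9252 with vehicle, against 11896 to 29385 in sham knees, with 0 of 12 markers higher. Neutrophil markers summed to 7982 to 10792 with vehicle, against 15665 to 20514 in sham knees, with 1 of 10 higher. Of these 10, 1 passed the test as lower, beside 0.0217% of all genes. Connective tissue fibroblast markers, from cells in which several CCN genes are active, summed to 1067 to 1153 with vehicle, against 1173 to 1942 in sham knees, with 1 of 8 higher. Smooth muscle and pericyte markers summed to 449 to 543 with vehicle, against 553 to 851 in sham knees, with 2 of 5 higher. B lineage markers summed to 246 to 291 with vehicle, against 336 to 357 in sham knees, with 0 of 5 higher. With the skeletal muscle level as a covariate, the log2 fold change of Ccn2 was 0.89 (adjusted p = 0.0451, edgeR). That of Ccn3 was -2.18 (adjusted p = 0.0446, edgeR), and Ccn1 did not pass (0.98, adjusted p = 0.108, edgeR). Genes called over the whole table went from 42 to 205 in this setting. The muscle level (mean log2 CPM) was 0.996 to 1.56 with vehicle and 2.02 to 3.24 in sham knees, without overlap. With the inhibitor it was 0.175 to 3.79, highest in inhibitor library 1. The fit applies a single slope over all 9 libraries, so its adjustment leans on the inhibitor group. It therefore cannot settle the part of muscle content in the difference between vehicle and sham. The part of the other cell types in these results was not tested.

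With the PKC inhibitor after injury, Ccn1 and Ccn2 were lower than with vehicle, at 0.634 and 0.707 of the vehicle level, and Ccn5 was higher, at 1.54 times. Ccn3 and Ccn4 overlapped between the groups. edgeR called none of the 5, against 0.731% of all genes (0.0289% higher and 0.702% lower), and DESeq2 none, against 2.39%. Unadjusted p was under 0.05 for 2 members, against 13.4% of all genes. Of the 5 members 2 had a positive log2 fold change, against 53.8% of all genes, and the median of the 5 was -0.17, beside 0.04 over all genes. This comparison shares the vehicle libraries with the one above, so values low or high in that group move both.

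Ccn1 had 70.5, 60.4 and 79.2 normalised counts with the inhibitor, against 109.7, 99.8 and 120.0 with vehicle. All inhibitor libraries were below all vehicle libraries, as for 10.4% of all genes. The log2 fold change was -0.66 ± 0.24 (SE), 1.58-fold lower, with a 95% interval of the fold of 0.444 to 0.906 and an adjusted p of 0.238 (edgeR). Ccn2 had 166, 152 and 186 normalised counts with the inhibitor, against 244, 204 and 262 with vehicle. These groups did not overlap, and the log2 fold change was -0.50 ± 0.20 (SE), 1.41-fold lower (fold 0.527 to 0.949, adjusted p = 0.278, edgeR).

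Ccn5, the member without the C-terminal knot, had 64.5, 63.1 and 63.6 normalised counts with the inhibitor, against 53.2, 33.3 and 38.2 with vehicle. All inhibitor libraries were above all vehicle libraries, which held for 8.44% of all genes, with an SD of 0.708 around a mean of 63.7. The raw counts behind these close values were 86, 162 and 49, so counting error alone is wider than this spread. The log2 fold change was 0.63 ± 0.36 (SE), 1.54-fold (0.905 to 2.63), with an adjusted p of 0.482 (edgeR).

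Ccn3 had 26.3, 8.96 and 35.0 normalised counts with the inhibitor, against 11.6, 9.51 and 13.6 with vehicle. Inhibitor libraries 1 and 3 were above every vehicle library and inhibitor library 2 was below every one. The fold of 1.93 (0.882 to 4.22) had an adjusted p of 0.465 in edgeR. Ccn4 had 84.0, 95.05 and 184 normalised counts with the inhibitor, against 99.7, 183 and 119 with vehicle. One library in each group was far above the other 2, and the fold was 0.888 (0.553 to 1.43; adjusted p = 0.857, edgeR). The sign of the Ccn4 difference turned without inhibitor library 1 (log2 fold change 0.02) and without vehicle library 2 (0.11).

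Chondrocyte markers summed to 1502 to 4147 with the inhibitor, against 7206 to 9796 with vehicle, with 0 of 7 tested markers higher. B lineage markers summed to 95.3 to 187 with the inhibitor, against 246 to 291 with vehicle, with 0 of 5 higher. All 12 skeletal muscle markers had positive log2 fold changes, but the sums overlapped, at 3299 to 41730 with the inhibitor against 7057 to 9252 with vehicle. The highest sum was that of inhibitor library 1. Its endothelial sum of 3047 was also the highest of the inhibitor group, which ranged upward from 513, against 698 to 813 with vehicle. All 8 fibroblast markers had positive log2 fold changes, with overlapping sums of 1046 to 2438 with the inhibitor against 1067 to 1153 with vehicle. Without inhibitor library 1, the log2 fold change was -0.67 for Ccn1, -0.49 for Ccn2 and 0.62 for Ccn5. The part of chondrocyte and B cell content in these results was not tested.

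Set against sham knees, the inhibitor group did not overlap for 3 members. Of all genes tested, 11.2% were higher and 11.6% lower in every inhibitor library than in every sham library. Ccn3 was below sham, and Ccn5 and Ccn2 were above it. None passed the test, in which edgeR called 3.95% of all genes (1.27% higher and 2.68% lower) and DESeq2 called 0 of the 5 members and 6.71% of all genes. Ccn3 and Ccn5 were the members with an unadjusted p under 0.05, against 18% of all genes. Of the 5, 3 had a positive log2 fold change, against 52.4% of all genes, and the median of the 5 was 0.28, beside 0.03 over all genes. The libraries are those already described, so these values restate them against another group.

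Ccn3 had 26.3, 8.96 and 35.0 normalised counts with the inhibitor, against 40.7, 87.8 and 62.2 in sham knees. The groups did not overlap, as for 11.6% of all genes that were lower in every library. The log2 fold change was -1.50 ± 0.48 (SE), 2.82-fold lower (fold 0.176 to 0.713), with an adjusted p of 0.0925 (edgeR). Ccn5 had 64.5, 63.1 and 63.6 normalised counts with the inhibitor, against 15.1, 42.0 and 26.4 in sham knees. Each inhibitor library was above each sham library, as for 11.2% of all genes. Its log2 fold change was 1.20 ± 0.37 (SE), 2.29-fold (1.32 to 3.98), with an adjusted p of 0.0874 (edgeR).

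Ccn1 averaged 70.0 ± 9.41 normalised counts with the inhibitor and 57.3 ± 6.57 in sham knees (SD, n = 3 each). The groups overlapped, and the fold was 1.21 (0.840 to 1.75; adjusted p = 0.604, edgeR). Ccn2 averaged 168 ± 16.8 normalised counts with the inhibitor and 130.03 ± 16.4 in sham knees (SD, n = 3 each). All inhibitor libraries were higher, with a fold of 1.29 (0.954 to 1.74; adjusted p = 0.379, edgeR). Ccn4 averaged 121 ± 55.0 with the inhibitor and 124 ± 30.2 in sham knees (SD, n = 3 each), with a fold of 0.961 (0.598 to 1.55). For Ccn1, Ccn2 and Ccn4 these intervals include equality as well as differences as large as the upper bounds given. In this comparison 3 of 7 tested chondrocyte, 4 of 10 neutrophil and 3 of 5 B lineage markers passed the test as lower, beside 2.68% of all genes. Of 10 monocyte and macrophage markers, 1 passed as higher, beside 1.27% of all genes. Erythroid markers summed to 2273 to 4425 with the inhibitor, against 4835 to 6729 in sham knees, with 0 of 6 higher. Chondrocyte and B lineage sums did not overlap either, with 0 of 7 tested and 0 of 5 markers higher. Sums of the remaining lists of the 11 overlapped. The part of all these cell types in the CCN values was not tested.

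**Figure D3:**
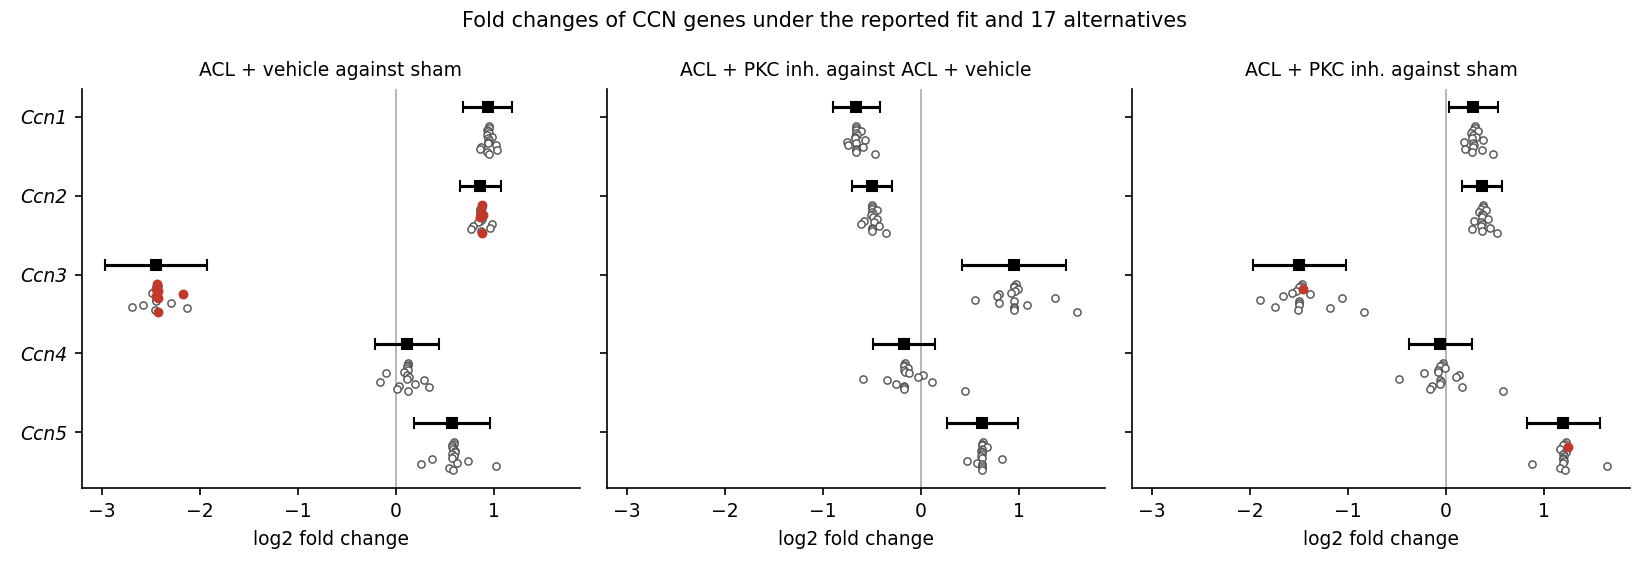
Log2 fold change (x axis) of the 5 CCN genes in the 3 comparisons. Squares with bars give the reported edgeR value ± SE, and circles give 17 alternatives each, filled red where the adjusted p was under 0.05. The points of Ccn1, Ccn2, Ccn3 and Ccn5 keep to one side of 0 in every panel, while those of Ccn4 fall on both sides.

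Ratios of members within a library do not depend on how libraries are scaled. Ccn2 over Ccn3, both per kilobase, was 6.33, 17.05 and 5.31 with the inhibitor, 21.1, 21.6 and 19.3 with vehicle, and 3.58, 1.29 and 2.13 in sham knees. No pair of groups overlapped. The vehicle ratios divide by 7, 8 and 10 raw counts of Ccn3, so their closeness is no measure of their precision. The geometric mean ratio was 9.62-fold higher with vehicle than in sham knees, and with the inhibitor it was 0.403 of the vehicle ratio and 3.88 times the sham ratio. Each exact two-sided permutation test gave p = 0.1, the smallest that 3 against 3 libraries can give, and 0.15 after adjustment over 18 ratio comparisons.

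Ccn5 over Ccn1 was 0.960, 1.10 and 0.843 with the inhibitor, 0.509, 0.350 and 0.334 with vehicle, and 0.310, 0.685 and 0.490 in sham knees. The inhibitor libraries lay above both other groups, which overlapped with each other (exact permutation p = 0.1 against each group and 0.7 for vehicle against sham). For Ccn5 over Ccn2 the inhibitor libraries lay above vehicle but overlapped sham (0.510 to 0.616 against 0.155 to 0.553, exact permutation p = 0.2). For Ccn5 over Ccn3 they lay above sham but overlapped vehicle, at 0.888 of the vehicle ratio (exact permutation p = 0.8). Ccn2 over Ccn1 was 1.66, 1.78 and 1.65 with the inhibitor, and ranged from 1.445 to 1.57 with vehicle and from 1.24 to 2.005 in sham knees. For this ratio too each inhibitor library lay above each vehicle library, at 1.12 times the vehicle ratio (exact permutation p = 0.1), while the sham range overlapped both. Over all 9 libraries these 2 genes had the narrowest range of the ratios compared.

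Over the 9 libraries, the profile of Ccn2 was the third closest to that of Ccn1 among 6511 genes. Likeness was the root mean square difference of log2 profiles, each centred on its own mean, and Ccn2 differed from Ccn1 by 0.18 against a median of 0.60 for all candidates. Dad1, a subunit of the oligosaccharyltransferase, was closest to Ccn1 at 0.15, and Trub2, a pseudouridine synthase, followed at 0.17. Closest to Ccn2 were Smad7, an inhibitor of TGF-beta signalling, at 0.16, Nob1, a ribosome assembly factor, at 0.16, and Aarsd1 at 0.17, with Ccn1 at rank 4. Ccn4 stood at rank 1415 from Ccn1 and 2531 from Ccn2, Ccn5 at 3590 and 4258, and Ccn3 at 6391 and 6400, near the far end. The difference also grows with the size of a gene's own changes and with its counting error, and Ccn3 had 7 to 10 raw counts per vehicle library. A far rank therefore does not by itself mean an opposite pattern. These libraries share their depth and cell mix across genes, so the likeness is a description.

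Genes around the family were taken in 5 lists. Their counts stand against the shares of all genes. An unadjusted p under 0.05 in edgeR was reached by 8.28% of genes with vehicle against sham, 13.4% with the inhibitor against vehicle and 18% with the inhibitor against sham. Positive log2 fold changes made up 48.1%, 53.8% and 52.4% in the same order. At an adjusted p under 0.05 edgeR called 0.304%, 0.731% and 3.95% of genes. Of 20 further YAP/TAZ-TEAD targets, 18 were tested. With vehicle against sham 1 was called, Ankrd1, a stress-induced ankyrin repeat protein of muscle, which rose to 53.3 ± 24.6 normalised counts with vehicle, against 3.34 ± 0.885 in sham knees (SD, n = 3 each; log2 fold change 3.98, adjusted p = 0.0209, edgeR). The list as a whole was spread around 0, with 8 of 18 positive and a median of -0.02, the median of all genes tested. For the inhibitor against vehicle, 0 of 18 were called, 3 had an unadjusted p under 0.05, 11 were positive and the median was 0.14, close to the shares of all genes (13.4% and 53.8%). DESeq2 also called 0. Of the 4 genes with the smallest p, 3 were higher with the inhibitor and 1, Gadd45a, was lower, as Ccn1 and Ccn2 were. Rbms3, an RNA-binding protein, averaged 172 ± 14.04 with the inhibitor and 108 ± 15.1 with vehicle (SD, n = 3 each; adjusted p = 0.214, edgeR). Myof, a membrane repair protein, averaged 235 ± 43.6 with the inhibitor and 163 ± 9.34 with vehicle (SD, n = 3 each; adjusted p = 0.249, edgeR). Ptpn14, a phosphatase that binds YAP, averaged 178 ± 41.0 with the inhibitor and 123 ± 29.0 with vehicle, with overlapping libraries (SD, n = 3 each; adjusted p = 0.354, edgeR). Gadd45a, a growth arrest protein, averaged 100.4 ± 4.53 with the inhibitor and 133 ± 13.7 with vehicle, with every inhibitor library lower (SD, n = 3 each; adjusted p = 0.402, edgeR). Against sham, edgeR called 3 of the 18 as higher with the inhibitor, beside 1.27% of all genes. These were Ankrd1 (log2 fold change 4.36, adjusted p = 0.00321), Rbms3 (1.08, 0.0236) and Myof (0.89, 0.0272). Of the 18, 12 were positive, and the median was 0.32.

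Of 14 receptors and co-receptors of CCN proteins, 13 were tested. With vehicle against sham, edgeR called 2 of the 13 as higher and 0 as lower, beside 0.282% and 0.0217% of all genes. Positive values were seen in 8 of 13, and the median log2 fold change was 0.11. Itga5, the alpha chain of the fibronectin receptor, rose to 215 ± 37.0 normalised counts with vehicle, against 61.5 ± 21.2 in sham knees (SD, n = 3 each; log2 fold change 1.78, adjusted p = 0.0196, edgeR). Sdc4, a heparan sulfate proteoglycan of focal adhesions, rose to 302 ± 57.2 with vehicle, against 101 ± 32.7 in sham knees (SD, n = 3 each; 1.58, adjusted p = 0.0326, edgeR). In the inhibitor group set against vehicle, 0 of 13 were called, 2 had an unadjusted p under 0.05, 3 were positive and the median log2 fold change was -0.27, beside 0.04 over all genes. Itga2b, the platelet integrin chain, was closest to the threshold there, at 74.2 ± 12.4 with the inhibitor and 147 ± 19.8 with vehicle (SD, n = 3 each; -0.98, adjusted p = 0.0698, edgeR). With the inhibitor against sham, edgeR called 2 of 13 as higher, Itga5 (1.41, adjusted p = 0.0158) and Sdc4 (1.31, 0.0219). It called 1 as lower, Itga2b (-1.29, 0.00827). The shares of all genes were 1.27% higher and 2.68% lower, and 8 of the 13 were positive with a median of 0.18. DESeq2 called Itga2b with the inhibitor against vehicle as well (adjusted p = 0.0240). With vehicle against sham, the call of Sdc4 was lost without any 1 of the 6 vehicle and sham libraries (adjusted p of up to 0.225, edgeR). The same held for Itga5 (up to 0.150) except without vehicle library 2, and for Ankrd1 (up to 0.177) except without vehicle library 3. With the inhibitor against sham, Ankrd1 and Itga2b passed in all 17 alternatives, Rbms3 and Sdc4 in 13, Itga5 in 12 and Myof in 10.

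Among 14 tested targets of MRTF and SRF, another actin-linked route to Ccn1 and Ccn2, edgeR called 0 with vehicle against sham (3 at an unadjusted p under 0.05, 8 positive, median 0.03) and DESeq2 called Tagln2. It also called 0 with the inhibitor against vehicle, where 2 had an unadjusted p under 0.05, 13 of 14 were positive and the median log2 fold change was 0.34. DESeq2 called Tagln there, a smooth muscle actin-binding protein, at 270 ± 261 with the inhibitor and 68.5 ± 22.01 with vehicle (SD, n = 3 each). Every inhibitor library was above every vehicle library for Tagln. Smooth muscle and pericyte markers summed to 1904 in inhibitor library 1, against 403 and 611 in inhibitor libraries 2 and 3. Their part in the Tagln values was not tested. Tagln2, an actin-binding protein, rose with the inhibitor against sham, at 670 ± 199 with the inhibitor and 311 ± 50.5 in sham knees (SD, n = 3 each; 1.11, adjusted p = 0.0204, edgeR). Of 13 TGF-beta pathway genes, edgeR and DESeq2 called 0 in each comparison. There were 2 at an unadjusted p under 0.05 in edgeR for vehicle against sham, 2 for the inhibitor against vehicle and 1 for the inhibitor against sham, where 8.28%, 13.4% and 18% of all genes reached it. For vehicle against sham they were Smad7 and Ltbp2 (1.07, adjusted p = 0.297, edgeR), both higher in every vehicle library. Smad7 averaged 124 ± 6.12 with vehicle and 75.5 ± 11.3 in sham knees (SD, n = 3 each; 0.72, adjusted p = 0.281, edgeR). For the inhibitor against vehicle, Tgfb1 was lower in every inhibitor library (-0.74, adjusted p = 0.210, edgeR). Tgfb3 was higher there, with overlapping libraries (1.18, adjusted p = 0.211, edgeR). For the inhibitor against sham it was Skil (0.54, adjusted p = 0.246, edgeR).

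Of 16 matricellular genes outside the family, edgeR called 0 with vehicle against sham, 5 had an unadjusted p under 0.05, 6 were positive and the median log2 fold change was -0.44. DESeq2 called Tgfbi, a TGF-beta-induced adhesion protein, at 987 ± 448 with vehicle and 294 ± 96.7 in sham knees (SD, n = 3 each). With the inhibitor against vehicle edgeR and DESeq2 called 0, with 3 at an unadjusted p under 0.05, 10 positive and a median of 0.23. The CCN medians of 0.57 and -0.17 had the opposite sign in both comparisons, a difference that was not tested. The -0.17 is the value of Ccn4, so the median of the 5 turns positive with it when inhibitor library 1 (0.02) or vehicle library 2 (0.11) is left out. Against sham 1 of the 16 was called with the inhibitor. It was Comp, the cartilage oligomeric matrix protein, which fell to 203 ± 76.9 with the inhibitor, against 478 ± 182 in sham knees (SD, n = 3 each; -1.25, adjusted p = 0.0412, edgeR). It passed in 7 of 17 alternatives, the Tagln2 call in 12. Chondrocyte markers were lower in the same comparison, and their part in the Comp values was not tested.

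**Figure D4:**
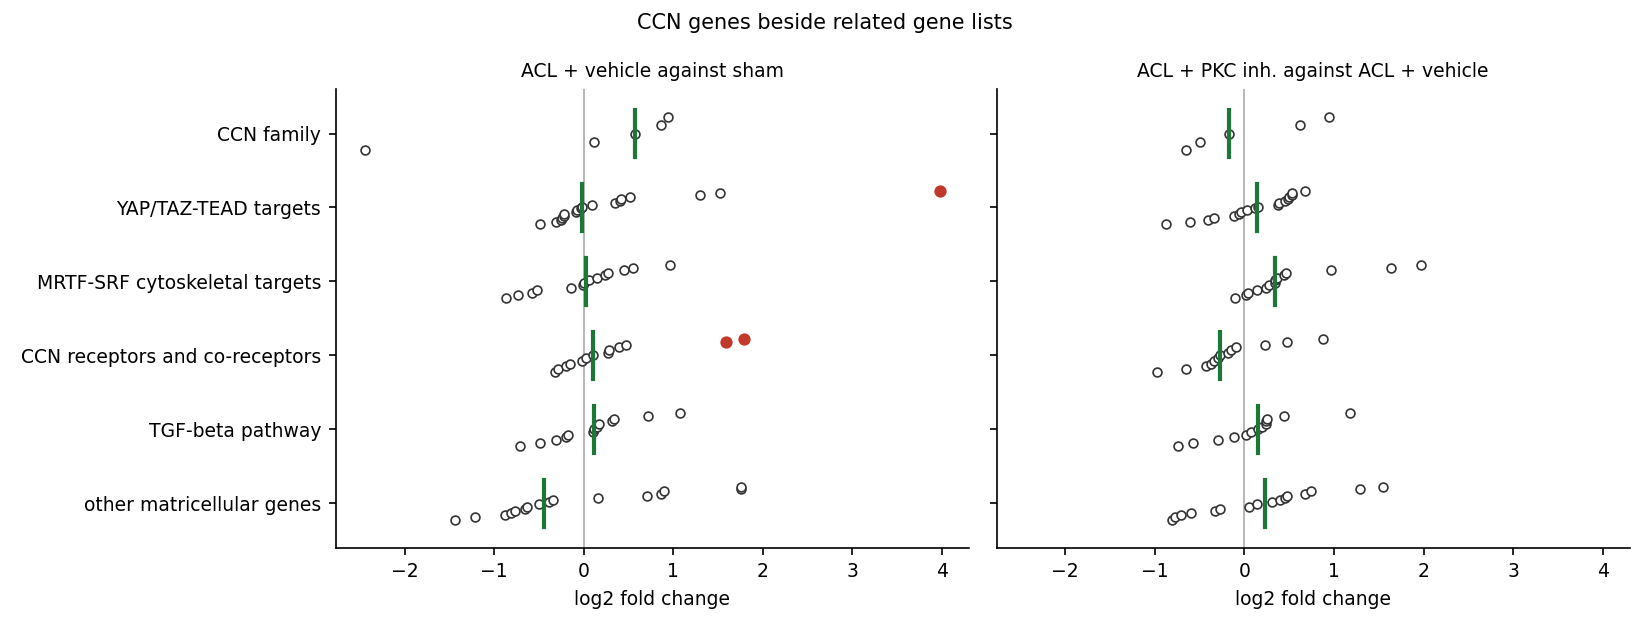
Log2 fold change (x axis) of each tested gene in the CCN family and 5 related lists, with vehicle against sham on the left and the inhibitor against vehicle on the right. Circles are genes, filled red where the adjusted p of edgeR was under 0.05, and green bars are list medians. With vehicle against sham Ankrd1 (3.98), Itga5 (1.78) and Sdc4 (1.58) are the red points, and the right panel has none.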

How the data were processed

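Mouse knee joint RNA (TRIzol, ribosomal RNA removed) was read as 100 bp pairs by DNBSEQ-G400, per the labels' protocols. The authors deposited raw read counts per gene name, made with featureCounts 2.0.1 over GENCODE M25 exons for reverse-stranded pairs, per the file headers. Reads with several alignments or over several genes were counted in full for each, which can raise counts of close paralogues and overlapping genes. HISAT2 and mm10 come from the submitters' processing notes, and the aligner's version is not given in the sources used here. Columns were given to samples by name alone, since the command in the header lists the alignment files in another order. A further 27 columns of other tables match no label and were not used.

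From the counts, 13823 of 55291 genes passed edgeR's filterByExpr (28362 were never counted). The 9 libraries were fitted together with TMM scaling and robust quasi-likelihood dispersions in edgeR 4.0.16 (limma 3.58.1, R 4.3.3), with a mean per group and no block. Tests were two-sided, with Benjamini-Hochberg adjustment over the 13823 genes and a threshold of 0.05. Every standard error (SE) is the log2 fold change over the root of F, and 95% intervals use that SE. SDs are over libraries. Counts per kb use the exon length in the table. Ratios of counts per kb were compared by exact permutation (scipy 1.17.1). Likeness used log2 CPM (prior count 2) of genes with a mean of at least 30 normalised counts and a profile SD of at least 0.3. Genes named Gm with a number, or with a name ending in Rik, were left out of it. DESeq2 1.42.0, other scalings, no filter, the compared groups alone, a replicate block, a skeletal muscle covariate and left-out libraries were the alternatives, 17 in all. No pair of libraries held identical counts.

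Named were all members, and from each related list the genes past the threshold, or up to 4 with the smallest p. Tagln and Tgfbi belong to these 4, in comparisons where edgeR called none of their list. The members, lists and tests were chosen with earlier results of these data known. Motifs were searched in RefSeq promoter windows on GRCm38.p6. One gene of the TGF-beta pathway list is not reported here and was left out of its counts.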

Additional observations from a re-analysis of the deposited data

How the results depend on the processing

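Outside Ccn4, 0 of 204 recomputed CCN values changed sign, and for Ccn4 9 of 51 did. All of these values reuse the same 9 libraries and are not separate checks. Where the groups did not overlap, leaving out libraries could hardly turn a sign. With vehicle against sham, log2 fold changes over 17 alternatives were 0.86 to 1.03 for Ccn1, 0.77 to 0.98 for Ccn2, -2.69 to -2.13 for Ccn3 and 0.26 to 1.02 for Ccn5. Ccn1 passed in none of them (adjusted p 0.0605 to 0.57). Ccn2 passed in DESeq2 (0.88), with the compared groups alone (0.87), with the muscle covariate (0.89) and without inhibitor libraries 1 and 2 (0.88), and with 1 library left out it ranged from 0.77 to 0.98, passing without inhibitor library 1 (adjusted p = 0.0303, edgeR). Ccn3 passed in the same 4 settings (-2.44, -2.43, -2.18 and -2.43) and with no filter (-2.45). With 1 library left out it ranged from -2.69 to -2.13, passing without inhibitor library 1 (adjusted p = 0.0111, edgeR) or 2 (0.0122). These 2 libraries belong to neither group of that comparison and enter it only through the fit that all groups share. Members called were thus 2 in those 4 settings, 1 with no filter, and 0 to 2 with 1 library left out. Ccn4 turned to -0.10 with the muscle covariate and ranged from -0.16 (without vehicle library 2) to 0.33 with 1 library left out.

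With the inhibitor against vehicle, 0 members passed in any alternative, and the log2 fold changes were -0.76 to -0.47 for Ccn1, -0.61 to -0.35 for Ccn2, 0.55 to 1.59 for Ccn3 and 0.47 to 0.83 for Ccn5. Ccn4 ranged from -0.59 to 0.11 with 1 library left out and was 0.45 without inhibitor libraries 1 and 2. With the inhibitor against sham, Ccn1 ranged from 0.18 to 0.48, Ccn2 from 0.26 to 0.52, Ccn3 from -1.90 to -0.84 and Ccn5 from 0.88 to 1.64. With no filter, 2 members passed, Ccn3 (-1.46) and Ccn5 (1.25), and 0 passed with 1 library left out. Ccn4 ranged from -0.48 to 0.16 with 1 library left out, being positive without inhibitor library 1 (0.14), inhibitor library 2 (0.10) or sham library 2 (0.16), and was 0.58 without inhibitor libraries 1 and 2.

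Genes called over the whole table varied more. With vehicle against sham the 42 became 147 in DESeq2, 262 with no filter, 291 with the compared groups alone, 205 with the muscle covariate and 301 without inhibitor libraries 1 and 2. With the inhibitor against vehicle the 101 became 330, 554, 3, 318 and 20 in the same order, and with the inhibitor against sham the 546 became 858, 1056, 198, 1197 and 174. With 1 library left out they ranged from 1 to 234, 0 to 256 and 141 to 841, in the order of these comparisons. The causes were not tested. With the replicate number as a block, the counts were 24, 103 and 420 and 0 members passed. Deviations of same-numbered libraries from their group means had correlations of -0.24 to 0.07. Libraries of different number were not compared in this way, and the labels do not say what the number marks. These values therefore cannot settle whether libraries were paired.

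Depth limits Ccn3 most, with 7 to 10 raw counts per vehicle library. The limit of 3 counts for Ccn6 covers counting error only, and 3 libraries per group cannot reach an exact permutation p below 0.1.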
